A study of Mus musculus with 2 samples.

Results

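The B lymphocyte genes described here are 32 mouse genes that mark B cells or serve their antigen receptor, their surface coreceptors or their transcription, read in RNA of peritoneal macrophages. Members were the non-control probes whose gene name in the array files was one of the 32, which found 28 genes of 37074 gene names on the array, with 59 of 59305 non-control spots. The other 4 members are on the array under other names. Igj is listed as Jchain and Faim3 as Fcmr, while Ighm and Ighd are described in words beside an Ensembl transcript name. Counts below are over the 28 genes found by name unless these 4 are said to be added.

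One array held RNA from wild-type (WT) mice and the other RNA from mice null for MeXis, a long noncoding RNA gene. Macrophages of the abdominal cavity of bl6 mice were used for both, kept in DMEM medium with serum, and no ligand or other treatment is named. Each array held a pool of 3 samples, so there was 1 array per genotype, no replicate and no test, and each difference is between these 2 arrays. How the cells were purified and how the null allele was made are not given in the sources used here. The MeXis probe was too dim on both arrays to check the labels, with signals of 12.3 for WT and 8.44 for MeXis null.

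B cells recognise antigen through a membrane immunoglobulin that signals through the CD79A and CD79B chains, and coreceptors such as CD22 and CR2 dampen or amplify that signal. PAX5 and EBF1 set the B cell programme, and activated B cells become plasma cells that secrete immunoglobulin. The peritoneal cavity holds resident B cells, many of them B-1 cells, beside its macrophages, and macrophages themselves express a few of the same genes, among them Blnk, Btk, Cd38 and Cd180.

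A value is the processed signal, an intensity on a linear scale, and a difference is log2 of MeXis null minus log2 of WT after each array was divided by its 75th percentile. Well above background is the scanner software's own call, met by 48.0% of non-control spots on WT and 44.3% on MeXis null. Among 285 probes spotted at least 5 times, spots of the same probe gave differences with a median SD of 0.47, so a difference under 0.91 (1.88-fold) lies within the range that covers 95% of values at such an SD. This spread is technical and within the pair of arrays. Only spots well above background on both arrays entered it, and its SD is a median, so a dim probe can spread more. A local surface correction, which subtracted the median difference of the 100 nearest spots, lowered the SD to 0.33 and is given beside a value where it moved it much.

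The labelled cell type was borne out by its markers. Of 14 macrophage markers on the array, 13 were well above background on both arrays. Their median difference was -0.21 (-0.09 with the surface correction), with 7 below 0 and 6 above. The unscaled signals of the list summed to 515747 for WT and 603017 for MeXis null. Lyz2 (lysozyme) read 71554 and 179211, a larger rise than that of the whole sum. The Lyz2 difference was 1.25 (0.52 with the surface correction), and Cd14 differed by 0.87. Csf1r, the receptor for the macrophage growth factor, differed by -0.86. Timd4, a receptor of resident peritoneal macrophages picked after its value was seen, was at background on both. In bulk RNA, fewer cells of a type and less RNA per cell cannot be told apart.

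Most B lymphocyte genes read lower on the MeXis null array, and Cd72 was the member that read much higher. Of the 28 genes, 18 were well above background on both arrays, 9 on WT only, 0 on MeXis null only and 1, Blk, on neither. Among the 18, 5 (Cd79b, Ly6d, Pou2af1, Bcl11a and Cd38) were at least 2-fold lower on MeXis null, against 4.51% of the 15482 genes measured on both arrays. Cd72 alone was at least 2-fold higher, against 7.79% of all genes. In all, 14 of the 18 lay below 0 and 4 above, with a median of -0.69 (-0.80 with the surface correction) beside a median of 0.06 over all genes. With the 4 other names added, 7 of 21 genes were at least 2-fold lower and the median was -0.79.

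The 9 genes seen on WT only were Vpreb3, Bank1, Fcer2a, Siglecg, Cd5, Fcrl1, Pax5, Ebf1 and Ralgps2. They make up 9 of the 27 members above background on an array, against 9.29% of 17579 genes. The lowest signal called well above background was 12.1 on WT and 27.3 on MeXis null, so a dim gene was more easily called on WT. These members read 24.2 to 171 on WT, and how far the unequal floors account for their number was not tested. A gene seen on WT only has a bound, its WT value against the higher of its own MeXis null signal and the lowest signal called there. Where its MeXis null signal was the higher, as for Cd5, Fcrl1 and Bank1, the bound is the measured difference and not a limit. By that bound 5 of the 9 (Vpreb3, Ralgps2, Cd5, Siglecg and Fcrl1) were at least 2-fold lower, against 11.9% of 1633 genes seen on WT only.

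**Figure D1:**
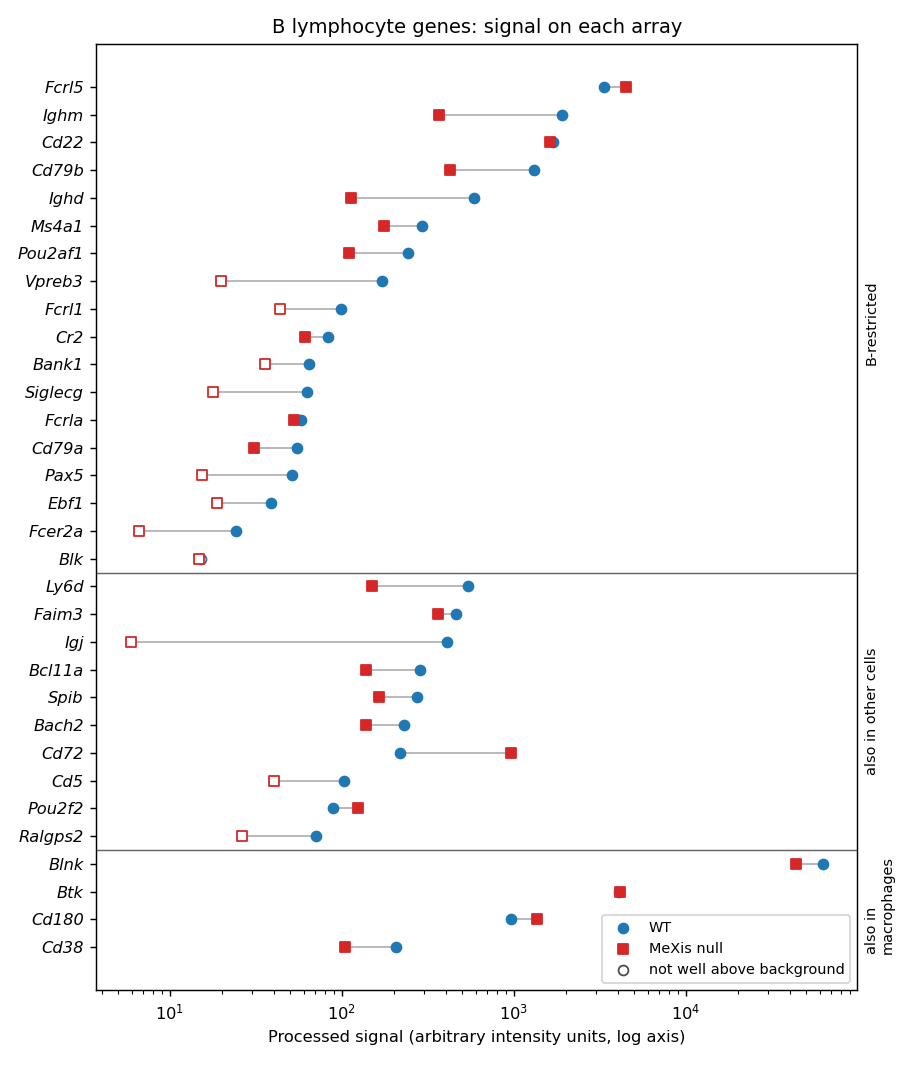
Processed signal of each B lymphocyte gene on the WT array (circles) and the MeXis null array (squares), on a log axis, with 1 probe per gene and open symbols where the signal was not well above background. All 10 open squares beside a filled circle belong to genes seen on WT only (9 found by name, plus Igj), and Cd72 has the square farthest to the right of its circle.

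The classes of members differed in their values, although no test of that difference was possible with these arrays. Of the 16 B-restricted genes found by name, 8 were measured on both arrays, 7 on WT only and 1 on neither. The 7 are 46.7% of those above background on an array, against 9.29% of all genes. The 8 had a median of -0.66 (-1.09 with the surface correction). Of them 2 were at least 2-fold lower (25.0%, against 4.51% of all genes) and 0 higher (against 7.79%). The 4 genes also expressed by macrophages were all measured on both arrays and had a median of -0.32 (-0.01 with the surface correction), with 1 of them, Cd38, at least 2-fold lower. The 8 genes also expressed by other lymphoid, plasmacytoid or myeloid cells had a median of -0.80 over the 6 measured on both arrays. It was -0.76 with the surface correction, so the order of this class and the B-restricted one depended on that correction. Of the 6, 2 were at least 2-fold lower (33.3%) and 1 higher (16.7%).

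The probes behind the antigen receptor genes are shown here because the lowest member values came from them. Each line gives the first 30 bases of a probe, 5′ to 3′ as the array file lists it, except the Cd79a probe, which is given whole because its match runs over 258 bases of the genome and so crosses a splice junction.
Ighm: tgtggctagtgtttgtgtggaagactggaa
Ighm, other probe: acagacagctgagctgtaaacaaatgtcac
Ighd: catgatgtaaatgaactaacccctgaaact
Igj: ctgtactagtctttctcttaacctctcact
Cd79b: agagacttgttggaatctgcaaatggactc
Cd79a: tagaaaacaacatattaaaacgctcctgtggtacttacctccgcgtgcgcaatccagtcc
Vpreb3: gtcaaccactgtcctgagaactgtgagatc

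Ighm encodes the heavy chain of IgM, the first receptor a B cell makes. Its probe at chr12:114659630-114659689 (mm9, minus strand) read 1903 on WT and 365 on MeXis null, 5.47-fold lower (-2.45). A second Ighm probe, at chr12:114656770-114656829 and assigned to another transcript, read 449 and 491, a difference of 0.06 (-0.58 with the surface correction). The probes of Ighm therefore disagreed. Another, at chr12:114658982-114659041, read 14558 and 1490, 10.3-fold lower, but its WT spot was marked as an outlier by the scanner software and it was left out of all counts.

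Ighd encodes the heavy chain of IgD, which mature B cells carry together with IgM. Its 2 probes read 586 and 113, 5.46-fold lower, and 79.9 and 30.9, 2.71-fold lower (-1.44). Both lay beyond the spread between spots of a probe. Among the 22733 probes measured on both arrays, these Ighm and Ighd probes ranked 20 and 21 from the lowest difference.

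Cd79b, a signalling chain of the receptor, read 1309 on WT and 425 on MeXis null, 3.23-fold lower (-1.69). Its partner chain Cd79a read 54.5 and 30.6, a difference of -0.90 that lay within the spread between spots. Vpreb3, a protein that binds immunoglobulin chains during their assembly, read 171 on WT and 19.9 on MeXis null, where it was not well above background, and was at least 6.59-fold lower. Both chains of the receptor pair thus had negative differences, and only that of Cd79b passed 2-fold.

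The kinases and adaptors behind the receptor gave smaller values. Blnk, an adaptor also used by macrophages, read 62384 and 43378, a difference of -0.59 that was -0.02 with the surface correction. Btk, a kinase of both cell types, read 4091 and 4145 (-0.05) with its main probe and 287 and 342 (0.19) with the other, and its sign changed with the processing. Bank1, a B cell scaffold protein, read 64.1 on WT and 35.7 on MeXis null, at background there, with a bound of 1.88-fold lower. The only probe of Blk, a SRC family kinase of B cells, read 15.1 and 14.7, at background on both. Of these genes, Blnk and Btk are shared with macrophages, and neither passed 1.88-fold.

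**Figure D2:**
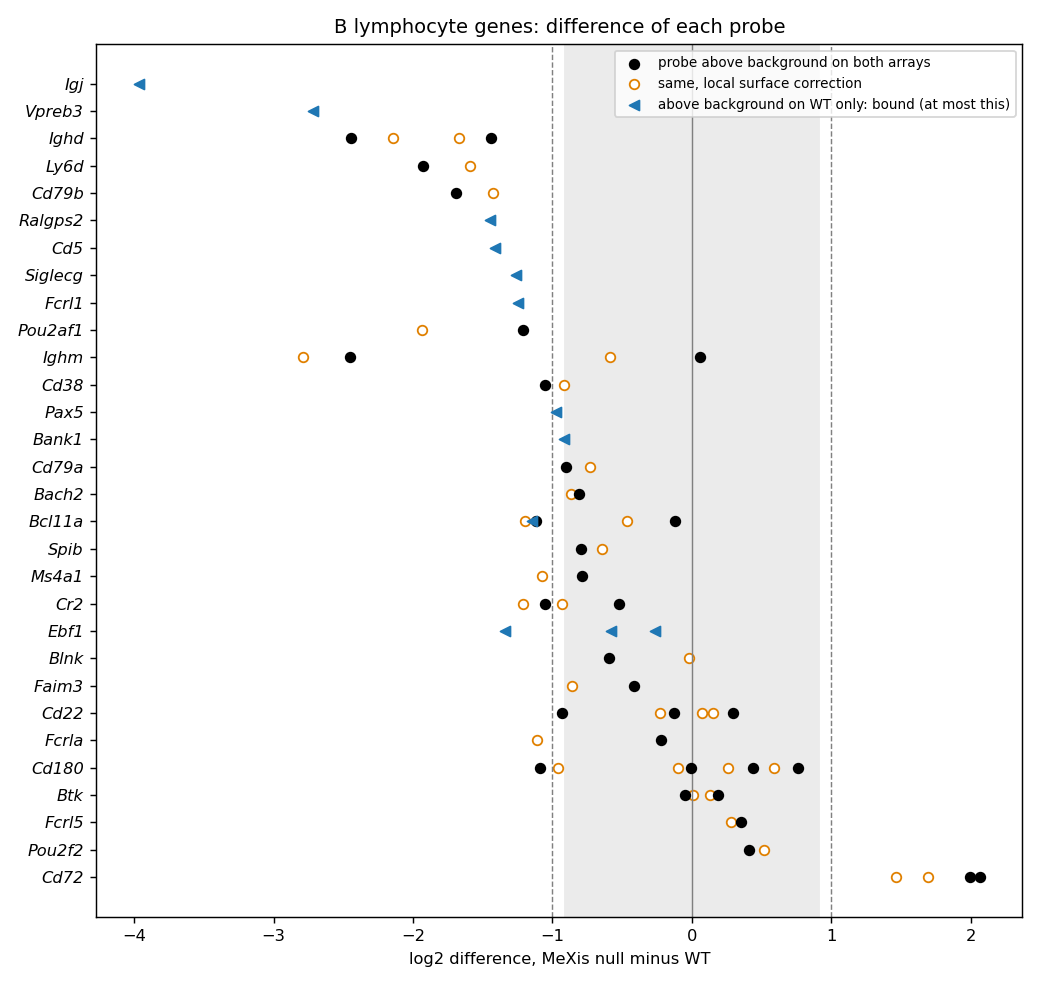
Difference of each member probe, as log2 of MeXis null minus WT, for probes measured on both arrays (black) and the same probes with the local surface correction (open). Triangles are bounds for probes seen on WT only. A triangle is a limit where the MeXis null signal lay below the lowest signal called there, and otherwise the measured difference. Grey marks differences under 0.91, within the spread between spots, and dashed lines mark 2-fold; of the triangles, those of Igj and Vpreb3 lie farthest left, and both Cd72 probes lie right of 2-fold in black.

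Cd72 went against the other members. It is an inhibitory receptor of the B cell surface that some myeloid cells also carry. Its main probe read 218 on WT and 962 on MeXis null, 4.20-fold higher. A second probe, whose match runs over 2145 bases of the gene and so crosses splice junctions, read 112 and 470, also beyond 2-fold. The main probe's difference was 2.07, and with the surface correction the pair gave 1.46 and 1.69. Its whole sequence is shown because it reads a separate stretch of the transcript from the first.
Cd72: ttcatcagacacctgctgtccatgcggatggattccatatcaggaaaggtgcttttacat

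Ms4a1 encodes CD20, a membrane protein of mature B cells. It read 291 and 177, a difference of -0.79 (-1.07 with the surface correction), and its second probe, at 23.2 and 14.2, was seen on WT only. Cr2, a complement receptor, had probes at 83.3 and 60.8 (-0.53, or -1.21 with the surface correction) and at 79.8 and 40.4 (-1.05). Fcer2a, the low-affinity IgE receptor CD23, read 24.2 on WT and 6.59 on MeXis null. It was seen on WT only, too dim for a bound.

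Cd22, an inhibitory lectin of B cells, did not share the pattern. Its probes read 1677 and 1611 (-0.13), 751 and 966 (0.29) and, for a probe across a splice junction, 68.5 and 37.7 (-0.93, or -0.23 with the surface correction). The probes thus disagreed in sign, and the main probe changed sign with the processing. Siglecg, a related inhibitory lectin, read 62.4 on WT and 17.9 on MeXis null, at least 2.40-fold lower. The junction probes of both lectins are shown for comparison of what was read.
Cd22: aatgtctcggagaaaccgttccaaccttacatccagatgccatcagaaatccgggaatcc
Siglecg: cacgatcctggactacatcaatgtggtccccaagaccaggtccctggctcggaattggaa

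The Fc receptor-like genes were mixed. Fcrl1 read 98.2 on WT and 43.5 on MeXis null, where it was not well above background, a measured difference of 2.37-fold lower. A second Fcrl1 probe was seen on WT only at 23.7 and 13.0. Fcrla read 58.0 and 52.4, a difference of -0.22 that was -1.11 with the surface correction. Fcrl5 read 3335 and 4477 (0.35) with 1 probe, while its other 2 probes were at background on both. Fcrl5 was the only B-restricted gene above 0 among the 8.

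Cd5, a receptor of T cells and of B-1 cells, read 103 on WT and 40.5 on MeXis null, where it was not well above background. The measured difference was 2.66-fold lower, or 1.84-fold with the surface correction. Ly6d, a surface protein of early and plasmacytoid lineages as well as B cells, read 539 and 149, 3.80-fold lower (-1.93). Faim3, the receptor for IgM, read 461 and 364, a difference of -0.41 (-0.86 with the surface correction). Of these, only Ly6d passed 2-fold with and without the surface correction.

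Cd38 and Cd180 are surface proteins of B cells and macrophages alike. Cd38, an enzyme that breaks down NAD, read 205 and 104, 2.07-fold lower (-1.05), and -0.92 with the surface correction. Cd180, a relative of the Toll-like receptors, read 959 and 1368 (0.44) with its main probe. Its other probes read 600 and 297 (-1.09), 139 and 248 (0.76) and 670 and 700 (-0.01). The probes at 959 and 600 on WT match directly adjacent stretches of chromosome 13, 103494284 to 103494343 and 103494224 to 103494283, and differed in sign.

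Transcription factors of the B cell programme had negative differences or were seen on WT only, except Pou2f2. Pax5, at 51.0 on WT and 15.3 on MeXis null, had a bound of 1.96-fold lower, while its second probe, at 11.1 and 38.4, stayed at background on both. All 3 Ebf1 probes were seen on WT only, at 38.8 and 18.7, 65.6 and 8.40, and 31.1 and 6.16. The bound of the main Ebf1 probe was -0.58 and that of the second -1.34. Pou2af1, the B cell coactivator of octamer-binding factors, read 243 and 110, 2.32-fold lower (-1.21, or -1.94 with the surface correction).

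Other factors are also used by further cell types. Spib, a factor of B cells and plasmacytoid dendritic cells, read 272 and 165 (-0.79), and Bach2, a repressor of plasma cell fate, 229 and 137 (-0.81). Bcl11a read 285 and 138 with its main probe, 2.17-fold lower (-1.12), and 119 and 115 (-0.12) with another, and one more probe was seen on WT only at 64.4 and 30.5. Pou2f2, an octamer-binding factor, read 89.1 and 124, a difference of 0.41. Ralgps2, a guanine nucleotide exchange factor outside these roles, read 70.9 on WT and 26.2 on MeXis null, at least 2.73-fold lower.

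Counted by probe, the members gave similar shares. Of the 59 member probes, 27 were measured on both arrays, 15 on WT only and 17 on neither. The 17, among them second probes of Cd22, Siglecg and Pou2f2 and 3 of Ralgps2, read at most 24.4 on WT and 38.4 on MeXis null. The 15 are of 42 probes above background on an array, against 11.0% of 26335 probes, and 7 of the 27 were at least 2-fold lower, against 4.48% of 22733 probes.

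Igj, the joining chain that links IgM and IgA into polymers, read 407 on WT and 5.94 on MeXis null, where it was not well above background, and was at least 15.7-fold lower. This was the largest bound of any member. It led to the immunoglobulin probes of the array, which were gathered by description after values of the members had been seen and are given as a description. They include the member probes of Ighm and Ighd, which are the 4 heavy constant probes measured on both arrays, 3 of them at least 2-fold lower. Of 237 such probes, 16 were measured on both arrays, 37 on WT only, 1 on MeXis null only and 183 on neither. The 37 are 68.5% of the 54 above background on an array, against 11.0% of 26335 probes. Of the 16, 10 were at least 2-fold lower, against 4.48% of 22733 probes, and 0 higher, with a median of -1.48.

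Probes with low values or large bounds are shown because they identify the chains read. The lambda probes lie on chromosome 16 and the kappa probe on chromosome 6. The Iglv1 and Ighg3 probes are given whole, since their matches run over 21818 and 1532 bases, and the others by their first 30 bases.
Lambda constant 1: gctagcagctacctgaccctgacagcaaga
Lambda variable 1: aggggcacagactgaggatgaggcaatata
Iglv1: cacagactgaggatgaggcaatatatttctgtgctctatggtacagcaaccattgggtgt
Ighg3: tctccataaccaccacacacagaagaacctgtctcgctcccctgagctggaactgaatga
Kappa variable 14-126: tctctaaccatcagcagcctggagtctgac

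Among probes measured on both arrays, lambda light chain 1 probes had the lowest immunoglobulin values. Lambda constant 1, at chr16:19061905-19061964 (mm9, minus strand), read 3317 on WT and 196 on MeXis null, 17.8-fold lower (-4.15), the lowest difference of all 22733 probes measured on both arrays. The lambda variable 1 probe read 785 and 64.0 (-3.69) and ranked 3. The Iglv1 probe, which overlaps it in sequence, was seen on WT only and read 694 and 32.3, a measured difference of 22.6-fold lower. The 2 probes of lambda constant 3 read 1983 and 721 (-1.53) and 1758 and 515 (-1.84).

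Kappa chains, the more common light chain of mouse B cells, differed less than lambda constant 1 and about as much as lambda constant 3. The 2 kappa constant probes read 4111 and 1335 (-1.69) and 1146 and 564 (-1.09). Among variable segments, kappa variable 14-126 read 461 on WT and 10.6 on MeXis null, at least 17.8-fold lower, while kappa variable 4-70 read 25.9 and 50.1 (0.88). Variable segments resemble each other closely, so such a probe may also read its near neighbours.

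Among heavy chains of switched isotypes, IgG3 had the largest bounds. The Ighg3 probe read 595 on WT and 15.7 on MeXis null, at least 22.9-fold lower, and a further gamma 3 probe read 413 and 11.1, at least 15.9-fold lower. Of 2 heavy constant alpha probes, for IgA, 1 read 57.4 and 22.5 and was at least 2.21-fold lower, and the other, at 4.09 and 27.3, was at background on both. The heavy constant gamma 2B probe, spotted 10 times, had median signals of 9.90 (WT) and 9.16 (MeXis null), and 1 of its 10 spots was well above background on WT. Constant regions were measured more often than variable ones: 9 of 19 constant probes were measured on both arrays, 8 of them at least 2-fold lower, against 7 of 218 variable probes, 2 of them at least 2-fold lower.

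The kappa variable 6-17 probe was the other immunoglobulin probe with 10 spots and showed how a dim value varied within an array. On WT the spots ran from 17.8 to 83.5 with a median of 43.7, and 9 of 10 were well above background. On MeXis null they ran from 6.58 to 24.5 with a median of 11.6, and 0 of 10 were. All 10 spots were lower on MeXis null at their place on the array, by a mean of -1.98 with an SD of 0.86 between spots. The ranges overlapped, with 3 MeXis null spots above the lowest WT spot.

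**Figure D3:**
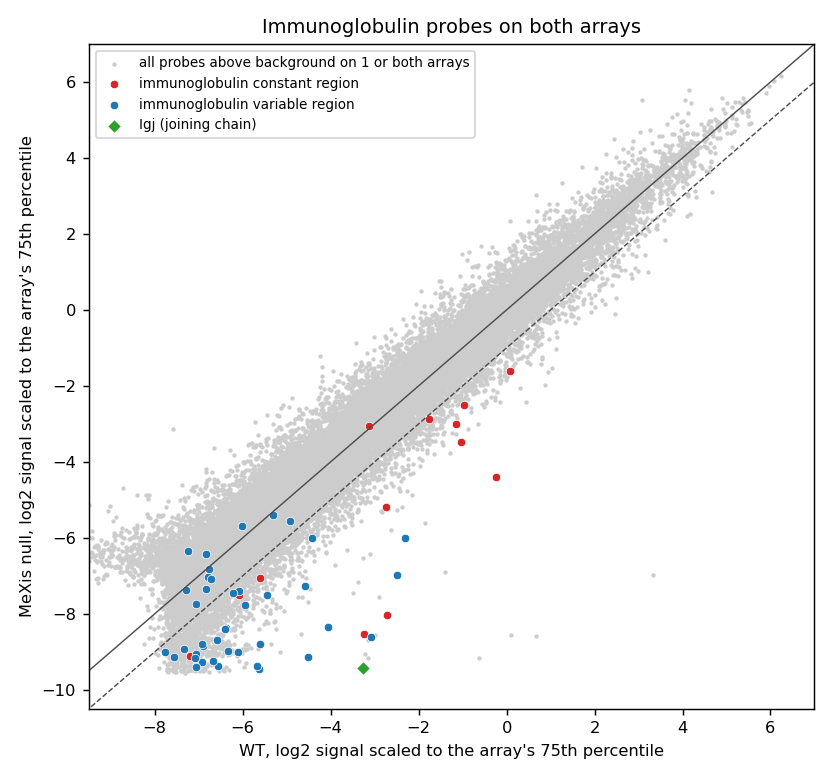
Scaled log2 signal on WT (horizontal) and MeXis null (vertical) for all probes above background on an array (grey), immunoglobulin constant regions (red), variable regions (blue) and Igj (green). The solid line marks equal values and the dashed line 2-fold lower on MeXis null; 8 of the 9 constant-region probes measured on both arrays lie below the dashed line.

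Genes of the receptor's downstream pathway, which macrophages share, had a less negative median difference than the members (-0.69). Of 24 listed, 23 were measured on both arrays. Of these, 4 were at least 2-fold lower (17.4%, against 4.51% of all genes) and 1 higher (4.35%, against 7.79%). With the surface correction 2 were lower and 2 higher. The median was -0.31 (-0.12 with that correction), beside 0.06 (-0.04) over all genes. Nfatc1, a transcription factor that receptor signalling activates, read lower (-1.53, or -0.92 with the surface correction). Dapp1 (1.88, or 1.25 with that correction) and Pik3ap1 (0.92), both adaptors of phosphoinositide signalling, had the highest values.

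A list of 20 further B cell genes, of which 19 were found, had 10 genes below 0 and 7 above among those measured on both arrays. Of these 17, 5 were at least 2-fold lower (29.4%, against 4.51% of all genes) and 1 higher (5.88%, against 7.79%). Their median was -0.37 (-0.13 with the surface correction). A further 1 was seen on WT only (5.56% of those above background on an array, against 9.29% of all genes). Its bound was at least 2-fold lower. Cd2, an adhesion receptor shared with T cells, differed by -1.26. Stap1 (1.31, or 0.98 with the surface correction) and Gga2 (0.63) had the highest values. Of 8 genes of B-1 and peritoneal B cells, which include genes that macrophages express, 6 were measured on both arrays with 0 past 2-fold. Another 1 was seen on WT only (14.3% of those above background on an array, against 9.29% of all genes). Its bound was also at least 2-fold lower. Of 8 genes of early B cell development, 5 were on neither array and 3 had values between -0.45 and -0.25. The median of the 3 was -0.34, but 0.04 with the surface correction.

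Markers of other cells gave these values beside the B cell genes. Plasma cell genes had a median of -0.58 over 6 measured of 8, with Mzb1, a plasma and B cell chaperone of immunoglobulin, at -1.54 and Irf4 at -1.30 (-0.92 with the surface correction). T cell genes had a median of -0.34 (-0.05 with the surface correction) over 9 of 14. Of the 9, only Cd2, which the B cell list also holds, was at least 2-fold lower (11.1%, against 4.51% of all genes). With the surface correction 2 were. Of the 14, 4, among them Cd3g and Cd8a, were at background on both, while Cd3e, Cd4 and Lck were among the 9 measured. Of 8 NK cell genes, 1 was measured on both arrays. Plasmacytoid dendritic cell genes had a median of -0.40 (-0.22 with the surface correction) over 4 of 7, and Tcf4, which B cells also use, differed by -1.33.

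MHC class II genes, which B cells and macrophages share, had a median of -0.70 over 6 of 8. Of the 6, 5 lay below 0, with Ciita at -1.76 and H2-Aa at -1.12 (-0.72 with the surface correction). The 1 above 0 was H2-DMa, at 0.67. Mesothelial genes went the other way: all 8 were measured, 4 of them at least 2-fold higher (3 with the surface correction), and their signals summed to 991 for WT and 2367 for MeXis null. The part of these markers in the B cell gene values was not tested.

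**Figure D4:**
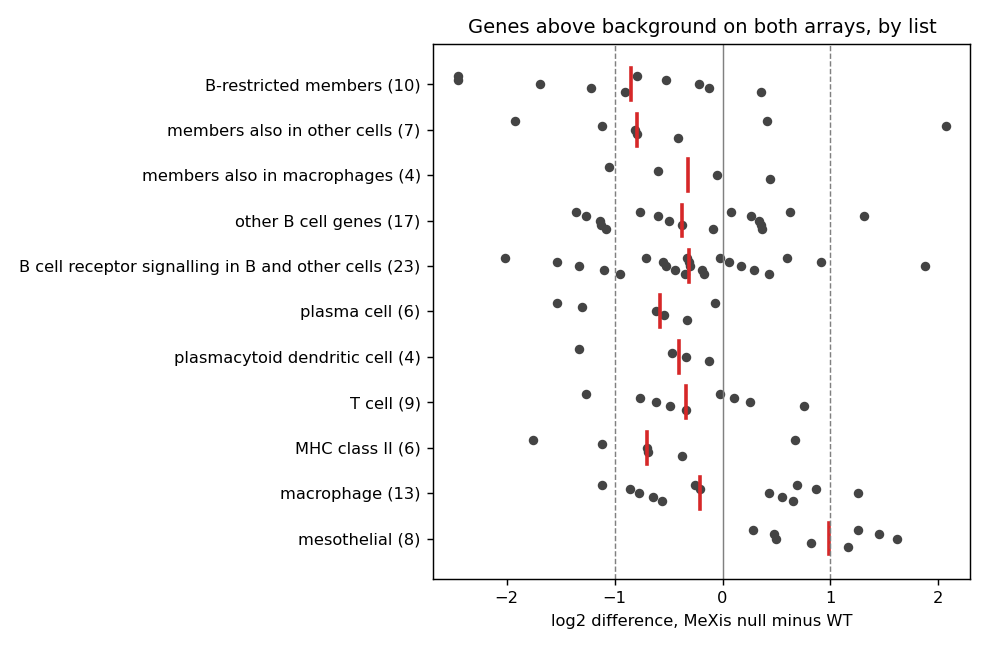
Differences of the genes measured on both arrays, as log2 of MeXis null minus WT, for the member classes (4 genes under other names included) and the other lists, with the number measured in brackets, 1 point per gene and the median as a red bar. The B-restricted members have a median of -0.85 and the mesothelial genes one of 0.99, with macrophage markers between at -0.21.

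What members share beyond their function was looked for in the 250 bases before their start sites, from RefSeq's GRCm38.p6 table. It held 26 of the 32 members, with 32 promoters between them. The octamer ATGCAAAT, read by the POU2F factors, was found on either strand in 2 of these 32 promoters, those of Vpreb3 and Blnk, against 1.60% of 32851 promoters. The EBF motif TCCCNNGGGA was found in 1 of the 32, that of Cd22, against 0.779%, and the PU.1 motif GAGGAA in 9 of the 32 against 23.3%. These are matches of letters, and the 3 genes with an octamer or EBF match had unlike values, Vpreb3 at least 6.59-fold lower, Blnk at -0.59 and Cd22 at -0.13. The Vpreb3 and Blnk stretches are shown with the octamer in capitals, where it reads on the minus strand of the promoter, at chr10:75948050-75948299 (plus strand) and chr19:40994222-40994471 (minus strand).
Vpreb3: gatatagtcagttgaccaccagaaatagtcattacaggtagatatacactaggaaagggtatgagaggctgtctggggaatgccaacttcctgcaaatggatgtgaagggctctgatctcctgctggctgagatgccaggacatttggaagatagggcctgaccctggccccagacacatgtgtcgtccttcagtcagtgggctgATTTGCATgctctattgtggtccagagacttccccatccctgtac
Blnk: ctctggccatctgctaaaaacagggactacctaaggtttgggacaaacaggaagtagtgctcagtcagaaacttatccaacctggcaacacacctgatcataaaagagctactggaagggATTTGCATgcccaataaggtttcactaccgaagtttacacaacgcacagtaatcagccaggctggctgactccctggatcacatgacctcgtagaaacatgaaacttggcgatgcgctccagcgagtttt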

How the data were processed

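RNA of 2 pools was hybridised to 1-colour (Cy3) arrays, 1 per genotype. The authors deposited scanner files that give each spot a background-subtracted intensity, the processed signal, on a linear scale. Per the file headers the software was Feature Extraction 11.5.1.1 of Agilent, and probe positions are on mm9. The deposited series matrix equalled it in all 62976 features.

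Signals were divided by the array's 75th percentile (3904 on WT, 4099 on MeXis null), taken over spots above background on WT and MeXis null alike, and log2 was taken. Control spots and spots marked as outliers were left out, and no spot was saturated. Spots of a probe were averaged. A gene was its probe with the highest mean level among probes well above background on an array, a narrower rule than the highest mean level first planned. Every member was named with its main probe, and some dim further probes of members were counted without their values being given. Values of other list genes were taken from the 2 highest and 2 lowest measured on both arrays, not all of which are reported here. Timd4, Cd3e, Cd3g, Cd4, Cd8a, Lck and the immunoglobulin probes were named after their values were seen. Counts used 2-fold. With 1 array per group no test was made, and the number of arrays limits the precision.

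The members, classes and lists were chosen with earlier results of these data known. The alternatives were normexp background correction, quantile and loess normalization, scaling to the median or to the 75th percentile of all probes, the series matrix, the surface correction, no filter or a stricter one for dim probes, a gene's median over its probes, inclusion of outlier spots, and thresholds of 1.5-fold and 3-fold. Python 3.11.15, R 4.3.3 and limma 3.58.1 were used, and the steps were tested on simulated data.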

Additional observations from a re-analysis of the deposited data

How the results depend on the processing

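For the 8 B-restricted genes measured on both arrays, the median difference of -0.66 stayed below 0 under every alternative tried. It was -0.46 with normexp background correction, -1.09 with the local surface correction and -1.02 with no filter on dim probes, which takes in 16 genes. The count of those genes at least 2-fold lower was 2, and became 3 with quantile and with loess normalization, 5 with the surface correction, 8 with no filter, 4 at a threshold of 1.5-fold and 1 at 3-fold. The count at least 2-fold higher was 0 throughout. Over the 18 member genes measured on both arrays, Btk (-0.70 to 0.07) and Cd22 (-0.21 to 0.07) were the genes whose sign differed between settings. Of the single-gene values under the alternatives, 183 moved by less than 0.47, the median SD between spots of a probe, and 12 by more. Of the 12, 6 were with normexp and 5 with the surface correction. Many of the 183 could not move. The series matrix, the inclusion of outlier spots and either change of the filter for dim probes left every measured single-gene value unchanged. Scaling to the median or to a percentile of all probes shifted every gene by the same amount. The 183 is therefore not a measure of how stable the values are. The cause of the 12 larger shifts was not tested. The median over all genes lay between -0.05 and 0.08 in every setting.

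No paired analysis was possible because each group has 1 array. Dim genes are limited further: the call of well above background needed 27.3 on MeXis null and as little as 12.1 on WT, so members near these signals have only a bound or none.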
